A study of Mus musculus with 2 samples.

Results

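The transcripts of the mitochondrial genome were examined in small hepatocytes (SHs) and mature hepatocytes (MHs) of the mouse. The members were all genes whose symbol begins with mt-, which gave 37 of the 43280 gene symbols counted. They were 13 mRNAs, 2 rRNAs and 22 tRNAs, and all 37 had reads in both libraries. Each cell type was represented by a single RNA-seq library. The mice were untreated C57BL6 animals, given as 20 weeks old in the labels and with another age in the methods. SHs, which the labels describe as hepatocyte progenitors, and MHs came from the same animals, 3 according to the methods, after digestion of the liver with collagenase. Dead cells were removed from both fractions with Percoll. No sort is described for MHs, whereas SHs were collected by FACS, as cells that lacked CD31, CD45 and EpCAM and carried ICAM-1. Poly(A) RNA was sequenced on an Ion Proton system. With 1 library per cell type there was no replicate, so SHs and MHs could not be tested against each other and no p-values are given. All intervals are 95% intervals (Clopper-Pearson unless named otherwise). They cover counting error only, as each cell type had 1 library. No molecular identifiers were described, so duplicates of 1 molecule may be counted, which would make the intervals too narrow.

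The mitochondrial genome is a small circle that is transcribed from both strands into long precursors. Transfer RNAs lie between most of the other genes, and their excision releases the mRNAs and rRNAs. The mRNAs encode core subunits of respiratory complexes I, III and IV and of complex V, the ATP synthase, whereas the other subunits and the whole of complex II are encoded in the nucleus. The rRNAs and tRNAs serve the mitochondrial ribosome. Hepatocytes are rich in mitochondria, which house fatty acid oxidation and the first steps of the urea cycle.

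In the GENCODE M21 annotation of mm10, 28 members lie on the forward strand and 9, mt-Nd6 and 8 tRNAs, on the reverse strand. The 5 tRNAs with the most reads and 4 with high ratios between the libraries are shown whole, because results below turn on them. Capitals mark the anticodon, the bases that pair with the codon, which a search placed in a 7-base loop closed by a stem of 5 positions. Of these positions, 3 paired in mt-Tw, 4 in mt-Ts2 and all 5 in the other 7 tRNAs. All sequences are from the GENCODE M21 transcripts and run 5′ to 3′ on the strand of the gene.
mt-Tm, methionine, chrM:3845-3913, forward: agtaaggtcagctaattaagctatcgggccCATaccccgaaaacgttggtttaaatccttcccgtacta
mt-Ts2, serine, chrM:11613-11671, forward: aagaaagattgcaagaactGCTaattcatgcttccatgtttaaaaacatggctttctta
mt-Tf, phenylalanine, chrM:1-68, forward: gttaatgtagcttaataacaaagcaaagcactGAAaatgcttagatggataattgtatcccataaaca
mt-Tv, valine, chrM:1025-1093, forward: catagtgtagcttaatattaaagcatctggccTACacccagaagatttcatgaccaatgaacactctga
mt-Tc, cysteine, chrM:5192-5257, reverse: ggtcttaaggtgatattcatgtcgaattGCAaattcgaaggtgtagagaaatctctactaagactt
mt-Tp, proline, chrM:15356-15422, reverse: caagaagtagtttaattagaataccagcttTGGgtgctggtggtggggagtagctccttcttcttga
mt-Tw, tryptophan, chrM:4950-5016, forward: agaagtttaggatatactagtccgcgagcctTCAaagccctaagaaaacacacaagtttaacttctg
mt-Td, aspartate, chrM:6942-7011, forward: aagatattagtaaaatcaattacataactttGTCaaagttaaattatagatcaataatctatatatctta
mt-Ts1, serine, chrM:6870-6938, reverse: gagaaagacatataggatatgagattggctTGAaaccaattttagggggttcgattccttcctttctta

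Some members share bases with a neighbour, and how reads there were assigned is not stated. The longest overlap joins mt-Atp8 and mt-Atp6, which encode ATP synthase subunits on a single transcript. Capitals mark the 43 bases that are both the end of mt-Atp8 and the start of mt-Atp6. The genes mt-Nd4l and mt-Nd4 overlap by 7 bases, and mt-Nd5 and mt-Nd6, on opposite strands, by 14.
mt-Atp8 end and mt-Atp6 start, chrM:7907-7989, forward: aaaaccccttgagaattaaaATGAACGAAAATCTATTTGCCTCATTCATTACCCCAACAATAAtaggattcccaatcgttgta

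In all, 16979136 reads were counted for MHs and 42356444 for SHs, and 3 reads, the limit that a count of 0 allows, were 0.177 and 0.0708 reads per 1000000 counted reads (RPM). The hepatocyte markers Alb, Apoa1, Ttr, Hnf4a, Cps1 and Tdo2 were abundant, each with at least 10753 reads per library and together with 74224 RPM in MHs and 78669 in SHs. Among the 15521 genes that had 10 or more reads in all, 15.5% had an interval of the log2 of SHs over MHs below 0 and 16.8% one above 0. Of 6 endothelial genes, all 6 had an interval below 0, and their sum was 54.2 RPM in MHs and 3.82 in SHs, with Lyve1 at 0 in SHs. Of 5 macrophage genes 4 were lower in SHs (10.2 and 0.708 RPM summed), and of 6 stellate cell genes 5 (18.2 and 1.89 RPM). Among these genes, Pecam1 and Ptprc encode the CD31 and CD45 used in the sort. The 5 cholangiocyte genes summed to 13.9 and 14.1 RPM, but did not move alike. Sox9 had 5.42 RPM in MHs and 7.67 in SHs, with an interval above 0. Spp1 had 8.01 and 6.40 RPM, with an interval below 0, and Epcam, Krt19 and Krt7 had at most 6 reads in a library. Of the 5 red blood cell genes, Alas2 held nearly all of 118 and 137 RPM, and each haemoglobin gene had at most 1 read in MHs and 9 in SHs. The 4 platelet genes together had 21 and 51 reads, with Pf4 and Gp9 at 0 in both libraries. The part of other cell types in the mitochondrial values was not tested. In bulk libraries, fewer cells of a type and less RNA per cell cannot be told apart.

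Mitochondrial transcripts took a larger share of the reads in SHs. The 37 members held 7.76% of the library of MHs (7.75 to 7.77) and 8.61% of that of SHs (8.60 to 8.62). This was a 1.11-fold difference, and the log2 of SHs over MHs (log2 SHs/MHs) was 0.15 (0.147 to 0.153). Shares sum to the whole library, so a share can also rise because other RNA falls.

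**Figure D1:**
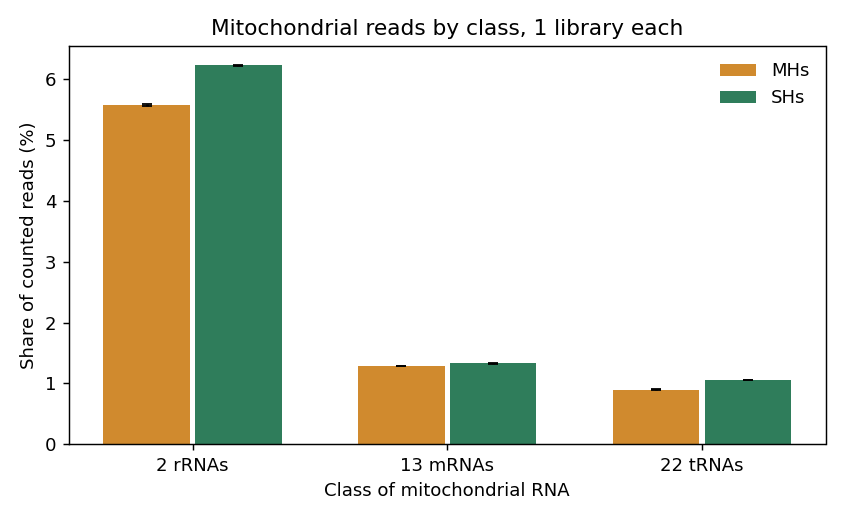
Share of all counted reads (%, linear axis from 0) on the 2 rRNAs, 13 mRNAs and 22 tRNAs in 1 library of MHs and 1 of SHs, with 95% counting intervals. The rRNAs took 5.57% and 6.23%, the mRNAs 1.29% and 1.33%, and the tRNAs 0.897% and 1.05%.

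The classes differed in how far they moved, as the bar chart of shares by class shows. The 2 rRNAs went from 5.57% of the reads in MHs to 6.23% in SHs, with a log2 SHs/MHs of 0.16 (0.156 to 0.163). The summed mRNAs took 1.29% and 1.33%, a smaller change of 0.04 (0.038 to 0.052) on the log2 scale. The tRNAs took 0.897% and 1.05%, a log2 SHs/MHs of 0.23 (0.223 to 0.240). Within the mitochondrial reads, rRNAs made up 71.8% and 72.3%, mRNAs 16.6% and 15.4%, and tRNAs 11.6% and 12.2%. Poly(A) RNA was selected, so these shares of reads need not be shares of the RNA in the cells.
Most mRNA reads belonged to mt-Co1, which alone took 80.2% of the mRNA reads in MHs and 75.7% in SHs. The other 12 mRNAs together went from 0.256% to 0.323% of the library, a log2 SHs/MHs of 0.34 (0.32 to 0.35).

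Most single members were higher in SHs. The log2 SHs/MHs was above 0 for 30 of the 37, and the interval lay wholly above 0 for 29 and wholly below 0 for 4. A value above 0 was found for 52.0% of the 15521 genes, and for 57.6% of the 5025 other genes with 1000 or more reads. Of the 15521 genes that had 10 or more reads in all, 16.8% had an interval above 0 and 15.5% one below 0. The width of an interval depends on the number of reads, and most members had many. By size, 19 members had a log2 SHs/MHs of at least 0.32 with an interval above 0, and 0 were lower to the same extent, beside 7.36% and 9.58% of the 15521 genes. A change of at least 2-fold was seen for 2 members, the tRNAs mt-Tw and mt-Td, both higher, and for 2.00% of the genes upward and 4.46% downward. The median log2 SHs/MHs was 0.33 over the 37 members, 0.02 over the 15521 genes and 0.04 over the 5025 other genes with 1000 or more reads.

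**Figure D2:**
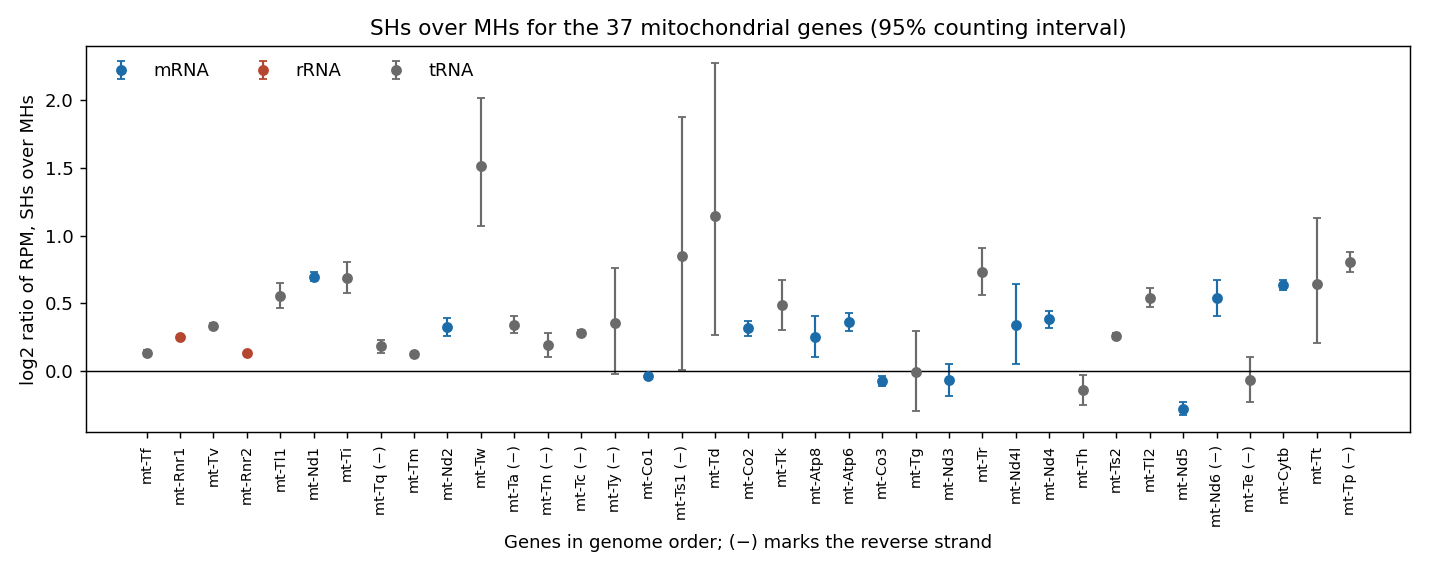
The log2 ratio of RPM in SHs over MHs (vertical axis) for the 37 members in genome order, each point 1 gene in 1 library per cell type with its 95% counting interval, coloured by class. Most points lie above 0, mt-Nd1 and mt-Cytb are the highest mRNAs, at 0.70 and 0.63, and mt-Nd5 is the lowest, at -0.28.

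The rRNAs had the most reads of the members. For mt-Rnr2, the RNA of the large ribosomal subunit (chrM:1094-2675), 732472 reads were counted in MHs and 2001649 in SHs, or 43140 and 47257 RPM. Its log2 SHs/MHs was 0.13 (0.128 to 0.135), and it alone made up 55.6% and 54.9% of the mitochondrial reads. For mt-Rnr1, the RNA of the small subunit (chrM:70-1024), the counts were 213863 and 635569, or 12596 and 15005 RPM, a log2 SHs/MHs of 0.25 (0.245 to 0.260). Both were higher in SHs, and their log2 values differed by 0.12 (Woolf interval 0.113 to 0.129). Per length, in reads per kilobase of gene per 1000000 counted reads (RPKM), the level of mt-Rnr2 was 2.07 times that of mt-Rnr1 in MHs and 1.90 times in SHs.

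Among the 7 mRNAs of complex I, the NADH dehydrogenase, 5 were higher in SHs, 1 was lower and 1 had an interval that included 0. Together they went from 0.124% to 0.161% of the library, a log2 SHs/MHs of 0.37 (0.35 to 0.39). The highest was mt-Nd1 (chrM:2751-3707), with 8755 reads in MHs and 35371 in SHs, or 516 and 835 RPM. Its log2 SHs/MHs of 0.70 (0.66 to 0.73) was above that of 99.5% of the 5025 other genes. The lowest was mt-Nd5 (chrM:11742-13565), with 5488 and 11276 reads, or 323 and 266 RPM. Its log2 SHs/MHs was -0.28 (-0.33 to -0.23), and 7.06% of the 5025 genes were lower. Subunits of 1 complex thus moved in opposite directions. The log2 values of mt-Nd1 and mt-Nd5 differed by 0.98 (Woolf interval 0.92 to 1.03), and no scaling of the libraries changes this difference.
The reverse-strand mRNA, mt-Nd6 (chrM:13552-14070), had 585 reads in MHs, 34.5 RPM, and 2120 in SHs, 50.1 RPM. Its log2 SHs/MHs was 0.54 (0.41 to 0.67), above that of mt-Nd5, whose end it overlaps, by 0.82 (0.68 to 0.96). Whether reads were counted by strand is not stated.
The 2802 and 9099 reads of mt-Nd4 (chrM:10167-11544) gave a log2 SHs/MHs of 0.38 (0.32 to 0.44). On the same transcript, mt-Nd4l (chrM:9877-10173) had only 128 and 404 reads and a value of 0.34 (0.05 to 0.64). These partners differed by -0.04, with an interval of -0.33 to 0.25. For mt-Nd2 (chrM:3914-4951) the counts of 2573 and 8029 gave 0.32 (0.26 to 0.39). The level of mt-Nd3 (chrM:9459-9806) was 46.9 RPM in MHs and 44.7 in SHs, from 797 and 1893 reads, and its interval of -0.19 to 0.05 included 0.

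Complex III, the cytochrome bc1 complex, has a single mitochondrially encoded subunit, cytochrome b. Its gene, mt-Cytb (chrM:14145-15288), was counted 7376 times in MHs and 28499 times in SHs, or 434 and 673 RPM. The log2 SHs/MHs of 0.63 (0.59 to 0.67) was above that of 99.4% of the 5025 genes. It was close to that of mt-Nd1, which was higher by 0.06 (Woolf interval 0.01 to 0.11).

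The mRNAs of complex IV, cytochrome c oxidase, did not move together. The catalytic subunit is encoded by mt-Co1 (chrM:5328-6872), with 175342 reads in MHs and 426185 in SHs, or 10327 and 10062 RPM. Its log2 SHs/MHs was -0.04 (-0.046 to -0.029), and with the 10 genes of highest count left out of the scaling it was -0.01 (-0.014 to 0.002), an interval that included 0. For mt-Co3 (chrM:8607-9390), 8696 and 20575 reads gave -0.08 (-0.11 to -0.04). For mt-Co2 (chrM:7013-7696), 3351 and 10395 reads gave 0.31 (0.26 to 0.37), which was above mt-Co3 by 0.39 (0.32 to 0.46).

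Both mRNAs of complex V were higher in SHs. Subunit a of the ATP synthase is encoded by mt-Atp6 (chrM:7927-8607), whose 2402 and 7679 reads gave a log2 SHs/MHs of 0.36 (0.29 to 0.42). The small subunit encoded by mt-Atp8 (chrM:7766-7969) had 460 and 1366 reads and a value of 0.25 (0.10 to 0.41). These overlapping genes differed by -0.11, with an interval of -0.27 to 0.06.

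The levels of the mRNAs differed more from each other than between SHs and MHs. Per length, mt-Co1 had 6684 RPKM in MHs and 6513 in SHs. The next in MHs was mt-Co3 with 653 RPKM, so mt-Co1 was 10.2 times as high. In SHs the next was mt-Nd1 with 873 RPKM, and mt-Co1 was 7.46 times as high. With the reads of the nuclear copies described below added, the next was mt-Co3 in both libraries, and mt-Co1 was 5.14 times as high in MHs and 5.29 times in SHs.
Below mt-Co3, the order in MHs was mt-Nd1 (539 RPKM), mt-Cytb (379.7), mt-Co2 (289), mt-Atp6 (208) and mt-Nd5 (177). The genes mt-Nd2, mt-Nd3, mt-Atp8 and mt-Nd4 followed, from 146 down to 119.8 RPKM, and the intervals of neighbours in this order overlapped. The lowest were mt-Nd6 and mt-Nd4l, at 66.4 and 25.4 RPKM. In SHs, mt-Nd1 stood above mt-Co3 (619.6 RPKM), and mt-Nd5, at 146 RPKM, stood below mt-Nd2, mt-Atp8 and mt-Nd4. The place of mt-Nd1 turned with the copies added, as mt-Co3 (1446 RPKM) and mt-Co2 (1215) then stood above it in SHs, and in MHs mt-Nd2 (188) then stood above mt-Nd5. Without the copies, the only neighbours in SHs with overlapping intervals were mt-Atp8 and mt-Nd4. Over the 37 members, log2 RPKM in MHs and in SHs had a Pearson's r of 0.994, a description across genes of the same libraries.

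**Figure D3:**
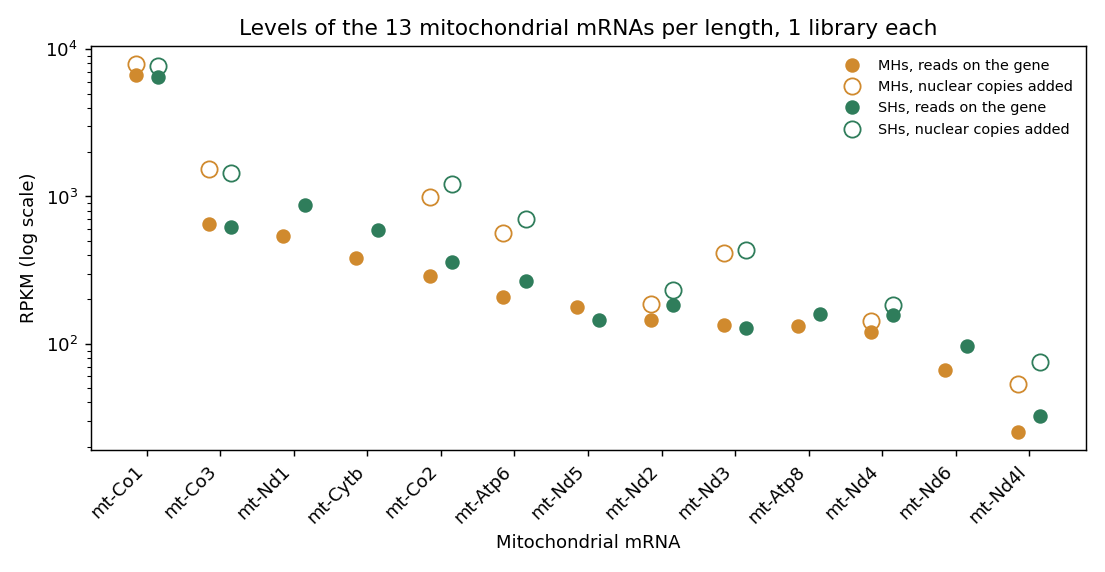
Levels of the 13 mitochondrial mRNAs in RPKM (log axis), ordered by their level in MHs, in 1 library of MHs and 1 of SHs, with and without the reads of nuclear copies. Without copies, mt-Co1, at 6684 and 6513 RPKM, lies above all others, and mt-Nd4l, at 25.4 and 32.1 RPKM, below all others.

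Several mRNAs have copies in the nuclear genome, pieces of mitochondrial DNA that were inserted into chromosomes in evolution. All annotated transcripts were searched for stretches of 31 bases that also occur in a mitochondrial transcript, on either strand. Of the counted genes other than the members, 19 held at least 1 such stretch, and 10 shared at least 25% of theirs. Just inside this limit was Gm13339 with 28.3%, and just outside Gm4076 with 24.6% and only 15 and 34 reads. Of the 10 copies, 7 lie together on chromosome 1 and 3 on chromosome 2 of mm10, and 5 were identical to the mitochondrial gene over their whole length. A window of 60 bases in mt-Co2 shows an identical copy beside a diverged one, with capitals for bases unlike mt-Co2, and was taken where Gm13341 differed most.
mt-Co2, chrM:7457-7516, forward: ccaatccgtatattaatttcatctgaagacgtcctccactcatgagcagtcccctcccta
Gm28661, chr1:24615062-24615121, reverse: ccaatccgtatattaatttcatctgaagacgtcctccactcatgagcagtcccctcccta
Gm13341, chr2:22587471-22587530, reverse: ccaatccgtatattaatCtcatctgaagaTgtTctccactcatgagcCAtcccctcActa

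For 5 members the copies held more reads than the gene itself. The copy Gm28661, identical to mt-Co2 over 681 bases, was counted 6487 times in MHs and 20039 times in SHs, and Gm13341, with 16 differing bases of 672, had 1725 and 4757. Together these held 71.0% and 70.5% of the joint reads of mt-Co2 and its copies. The identical copy of mt-Co3, Gm28437, had 11763 and 27441 reads, 57.5% and 57.1% of the joint reads. The copies held 63.2% and 62.4% for mt-Atp6 (Gm10925), 67.5% and 70.3% for mt-Nd3 (Gm28438, 1 differing base) and 52.1% and 57.2% for mt-Nd4l (Gm10222).
Smaller shares were on the copies of mt-Co1 (Gm29216 and Gm13340, 15.3% and 14.9%), mt-Nd4 (Gm28439, 15.5% and 15.5%) and mt-Nd2 (Gm13339, 22.2% and 20.7%). A count per gene does not show from which genome a read came, so the levels of these members and their order are uncertain.

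**Figure D4:**
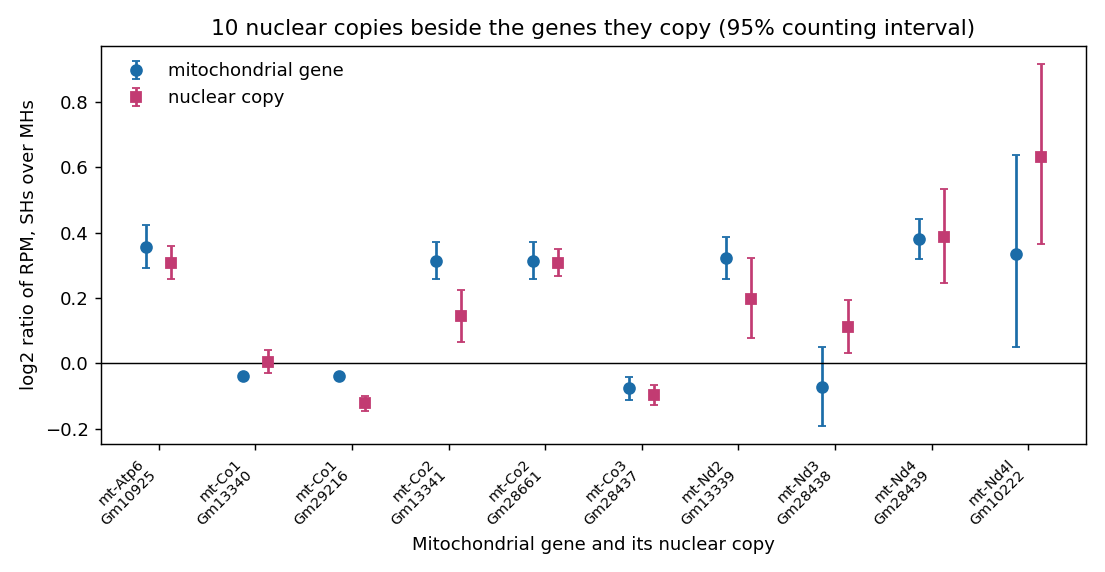
The log2 ratio of RPM in SHs over MHs for each of the 10 nuclear copies beside the mitochondrial gene it copies, 1 library per cell type, with 95% counting intervals. The copies of mt-Co2 and mt-Atp6 lie above 0 like the genes, and Gm28437 lies below 0 like mt-Co3. Gm28438, at 0.11, and Gm13340, at 0.01, lie above 0, whereas mt-Nd3 and mt-Co1 lie below 0.

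A log2 ratio with the same sign as that of the gene was seen for 8 of the 10 copies. Gm28438 had 0.11 (0.03 to 0.20) beside -0.07 for mt-Nd3, and Gm13340 had 0.01 beside -0.04 for mt-Co1. The intervals of mt-Nd3 and Gm13340 included 0. For all 5 identical copies, the difference of the log2 values had a Woolf interval that included 0. Reads from identical sequence cannot be told apart, so gene and copy were not measured separately there. Gm28437 had -0.10 beside -0.08 for mt-Co3, Gm28661 had 0.31 beside 0.31 for mt-Co2, and Gm10925 had 0.31 beside 0.36 for mt-Atp6. Over the 10 copies the difference, copy minus gene, ran from -0.17 for Gm13341 to 0.30 for Gm10222, and 6 of the 10 intervals included 0. Those of Gm13340, Gm29216, Gm28438 and Gm13341 did not. Pearson's r between copies and genes was 0.80 over these 10 pairs, which share libraries and sequence. In these pairs mt-Co1 and mt-Co2 each occur with 2 copies.
With the reads of copies added, 7 of the 8 members that have such a copy kept the sign of their log2 SHs/MHs. Where the copy is identical, this is no separate check. The joint value was 0.29 (0.26 to 0.32) for mt-Co2, 0.33 (0.29 to 0.37) for mt-Atp6, -0.09 (-0.11 to -0.06) for mt-Co3 and -0.04 (-0.052 to -0.037) for mt-Co1. The exception was mt-Nd3, at 0.06 (-0.01 to 0.12), whose interval included 0 with and without the copy. Joint levels per length were 996 RPKM in MHs and 1215 in SHs for mt-Co2, 1537 and 1446 for mt-Co3, and 7896 and 7655 for mt-Co1, still the highest. No annotated copy that passed the limit was found for mt-Nd1, mt-Cytb, mt-Nd5, mt-Nd6, mt-Atp8, the rRNAs or the tRNAs. Only annotated transcripts were searched, so a copy without an annotation, for example between neighbouring copies on a chromosome, would be missed.

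The tRNAs were unequal in reads, and 5 of the 22 took 88.9% of the tRNA reads in MHs and 87.6% in SHs. As poly(A) RNA was selected, these reads need not measure the abundance of the tRNAs themselves. The methionine tRNA mt-Tm led with 41756 and 113498 reads, or 2459 and 2680 RPM, more than its far longer neighbour mt-Nd2. Its log2 SHs/MHs was 0.12 (0.11 to 0.14). The serine tRNA mt-Ts2, with 27257 and 81269 reads, had 0.26 (0.24 to 0.28), and mt-Tf, for phenylalanine, with 24311 and 66348 reads, had 0.13 (0.11 to 0.15). The values of mt-Tv and mt-Tc were 0.33 and 0.28, so all 5 were higher in SHs. Together the 5 rose 1.16-fold, and the other 17, from 0.0991% of the reads to 0.130%, rose 1.31-fold.
The highest ratios belonged to tRNAs with few reads. The tryptophan tRNA mt-Tw had 44 and 316 reads and a log2 SHs/MHs of 1.51 (1.07 to 2.02). The aspartate tRNA mt-Td had 11 and 63 reads and 1.15 (0.26 to 2.27), and the serine tRNA mt-Ts1 had 13 and 60 reads and 0.85 (0.01 to 1.88). Wide intervals in mt-Td and mt-Ts1 reach down to small differences. The genes beside these tRNAs, mt-Nd2 for mt-Tw, mt-Co1 for mt-Ts1 and mt-Co2 for mt-Td, have nuclear copies. Whether unannotated copies of these tRNAs took part of their reads was not tested. Among tRNAs with over 1000 reads in MHs, mt-Tp, for proline, was highest, with 1852 and 8054 reads and 0.80 (0.73 to 0.88).
Of the rest, mt-Tr for arginine had 0.73, mt-Ti for isoleucine 0.69, mt-Tt for threonine 0.64, the leucine tRNAs mt-Tl1 and mt-Tl2 0.55 and 0.54, and mt-Tk for lysine 0.48. The values of mt-Ta, mt-Tn and mt-Tq, for alanine, asparagine and glutamine, were 0.34, 0.19 and 0.18. All of these had intervals above 0. The histidine tRNA mt-Th was the single tRNA with an interval below 0, with 926 and 2091 reads and -0.14 (-0.26 to -0.03). With the 10 genes of highest count left out of the scaling, this interval also reached 0. The intervals of mt-Te, mt-Tg and mt-Ty, for glutamate, glycine and tyrosine, included 0. Summed by strand, the 9 reverse-strand members had a log2 SHs/MHs of 0.30 (0.28 to 0.32) and the 28 forward-strand members 0.15 (0.143 to 0.149). The median was 0.31 over the 8 reverse-strand tRNAs and 0.51 over the 14 forward-strand tRNAs.

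Adjacent members had ratios with little correlation, as the plot of ratios in genome order shows. Some neighbours had near-equal log2 values, such as mt-Nd1 at 0.70 and mt-Ti at 0.69, or mt-Cytb at 0.63 and mt-Tt at 0.64. Others did not, such as mt-Tl2 at 0.54 beside mt-Nd5 at -0.28, and mt-Te at -0.07 between mt-Nd6 and mt-Cytb. Over the 36 adjacent pairs Pearson's r was 0.04. Over the 37 members, r was -0.30 with gene length, -0.13 with GC content and -0.40 with log2 RPKM in MHs. The last holds the count in MHs on both sides, so counting error alone pushes it below 0. These are descriptions across genes of the same libraries.
The ends of the mRNAs are shown because poly(A) RNA was selected and some mitochondrial mRNAs have their stop codon completed by the tail. In the annotation, 3 of the 13 mRNAs end with the first base of a stop codon. Capitals mark this base, or the whole stop codon in mt-Nd1 and mt-Nd5, in the last 30 bases. The log2 SHs/MHs of the 3 was -0.08 for mt-Co3, 0.38 for mt-Nd4 and 0.63 for mt-Cytb, and their median of 0.38 stood beside 0.32 for the other 10 mRNAs.
mt-Co3, chrM:9361-9390, forward: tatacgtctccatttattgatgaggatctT
mt-Nd4, chrM:11515-11544, forward: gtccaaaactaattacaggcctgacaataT
mt-Cytb, chrM:15259-15288, forward: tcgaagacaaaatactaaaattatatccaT
mt-Nd1, chrM:3678-3707, forward: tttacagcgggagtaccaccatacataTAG
mt-Nd5, chrM:13536-13565, forward: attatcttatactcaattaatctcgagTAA

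Nuclear genes that act on mitochondrial DNA and RNA had medians nearer 0 than the members. The counts below for these lists stand beside 16.8% of all 15521 genes with an interval above 0 and 15.5% with one below 0. This background was not matched for the number of reads, on which the width of an interval depends. Of 17 genes for transcription and replication of mitochondrial DNA, 1 had an interval above 0, 3 had one below 0 and 13 included 0, with a median of 0.01. Tfam, which packages mitochondrial DNA and starts its transcription, had 21.9 RPM in MHs and 23.5 in SHs, with an interval of -0.07 to 0.28. Polrmt, the mitochondrial RNA polymerase, had 25.9 and 25.8 RPM, with an interval of -0.17 to 0.16. The transcription factor Tfb2m was lower in SHs at -0.36 (-0.61 to -0.11), as was Rnaseh1, which removes RNA from RNA-DNA hybrids, at -0.46 (-0.86 to -0.05). The highest, Polg2 and Mterf4, had 0.33 and 0.17 with intervals that included 0.
Of 21 genes for processing, stability and decay of mitochondrial RNA, 6 had an interval above 0 and 2 below 0, with a median of 0.08. Lrpprc, which stabilises mitochondrial mRNAs, went from 102 to 118 RPM, a log2 SHs/MHs of 0.22 (0.14 to 0.30), and its partner Slirp had 15.7 and 15.7 RPM. Ptcd1, which acts on mitochondrial tRNAs, was highest at 0.57 (0.29 to 0.86), followed by 1110008L16Rik at 0.47 (0.13 to 0.84). The mitochondrial poly(A) polymerase Mtpap was lower at -0.27 (-0.50 to -0.03), and Fastkd2 had -0.22 with an interval that included 0.
Of 20 genes for rRNA modification and translation, 4 had an interval above 0 and 1 below 0, with a median of 0.08. Mrm1, which methylates mitochondrial rRNA, had 35 and 183 reads and a log2 SHs/MHs of 1.05 (0.54 to 1.63), and the elongation factor Gfm1 had 0.30 (0.19 to 0.42). Ptcd3 had -0.22 (-0.39 to -0.05), and Gfm2 had -0.11 with an interval that included 0. Of 22 mitochondrial tRNA synthetases and amidotransferase subunits, 7 had an interval above 0 and 1 below 0, with a median of 0.05. Lars2, the leucyl-tRNA synthetase, stood apart with 64867 of the list's 71128 reads in MHs and 255985 of 272363 in SHs, a log2 SHs/MHs of 0.66 (0.649 to 0.674). It had 3820 RPM in MHs and 6044 in SHs, whereas the next highest of the list had 53.8 and 52.2. Whether all reads counted for Lars2 came from its mRNA was not tested. Tars2 had 0.33 (0.15 to 0.52), Rars2 -0.39 (-0.70 to -0.08), and Wars2 -0.23 with an interval that included 0.
Of 11 regulators of mitochondrial biogenesis, 3 had an interval above 0 and 1 below 0, with a median of 0.10. The coactivator Ppargc1a had 8.01 RPM in MHs and 8.95 in SHs, with an interval of -0.13 to 0.45. Ppargc1b and the nuclear receptor Esrra were higher, at 0.44 (0.16 to 0.74) and 0.35 (0.19 to 0.52). Ppara, a nuclear receptor of fatty acid metabolism, was lower at -0.23 (-0.31 to -0.14), and Pprc1 had -0.22 with an interval that included 0.

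**Figure D5:**
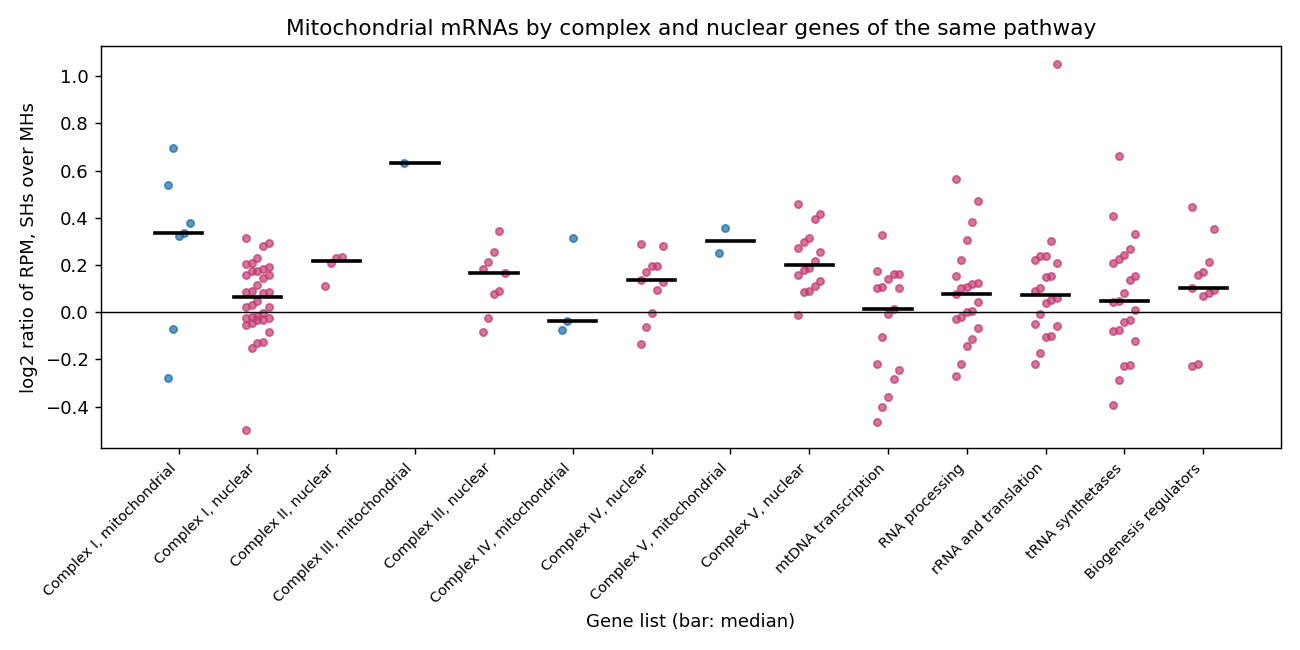
The log2 ratio of RPM in SHs over MHs for mitochondrially encoded mRNAs by complex and for nuclear genes of the same pathways, each point 1 gene, with medians, 1 library per cell type. For complexes I, III and V the median of the mitochondrial genes (0.34, 0.63 and 0.30) lies above that of the nuclear genes (0.07, 0.17 and 0.20), and for complex IV (-0.04 and 0.14) below it.

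Nuclear and mitochondrial subunits of the same complex were set side by side, with the same 16.8% and 15.5% as background for the nuclear counts. This background, too, was not matched for reads, and some subunits had many, such as Atp5b with 15385 in MHs and 43399 in SHs. For complex I the median log2 SHs/MHs was 0.34 over 7 mitochondrial mRNAs and 0.07 over 36 nuclear genes, of which 14 had an interval above 0 and 3 below 0, from Ndufb4 at -0.50 to Ndufa5 at 0.32. In complex III, mt-Cytb at 0.63 lay above all 9 nuclear genes, whose median was 0.17 and whose highest was Uqcr10 at 0.34. In complex IV the order was the other way, with -0.04 over 3 mitochondrial mRNAs and 0.14 over 11 nuclear genes, 8 above 0 and 2 below 0, from Cox7c at -0.13 to Cox6b1 at 0.29. In complex V the medians were 0.30 over 2 mitochondrial mRNAs and 0.20 over 16 nuclear genes, 13 above 0 and 0 below 0. The highest of these were Atpif1, an inhibitor of the enzyme, at 0.46 and Atp5e at 0.42. All 4 subunits of complex II had intervals above 0, with a median of 0.22.

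Genes that respond to cell isolation and RNAs kept in the nucleus were examined because the preparations differed in handling. Of 12 immediate-early and stress genes, 5 had an interval above 0 and 6 below 0, with a median of -0.02. The background, not matched for reads, was 16.8% and 15.5% of the 15521 genes. Fos went from 193 to 295 RPM, a log2 SHs/MHs of 0.61 (0.56 to 0.67), and Atf3 had 0.37. Ddit3 and the heat shock gene Hspa1b were lower, at -0.59 (-0.83 to -0.34) and -0.43 (-0.74 to -0.11). All 4 nuclear RNAs were lower in SHs, among them Malat1, with 2805 and 2159 RPM, at -0.38 (-0.39 to -0.36), and Neat1 at -0.15. The part of isolation, sorting and RNA quality in the mitochondrial ratios was not tested, and with 1 library each the preparation and the cell type cannot be told apart.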

How the data were processed

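Poly(A) RNA of 1 sample of SHs and 1 of MHs was sequenced. The authors deposited whole read counts per gene symbol, without normalization. Their methods describe alignment to mm10 in CLC Genomics Workbench with up to 10 hits per read. The counter, annotation, strand setting and rule for multiple hits behind the deposited counts are not given in the sources used here.

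Counts were scaled to RPM by all counted reads, with log2 SHs/MHs taken after adding 0.5 reads. Lists and background used genes that had 10 or more reads in all. Ratios of 2 members were compared with Woolf intervals. Copies were aligned with Biopython 1.88 (match 2, mismatch -3, gap -5 and -2). Python 3.11.15, numpy 2.4.6, pandas 2.3.3, scipy 1.17.1 and R 4.3.3 were used. Alternatives were scaling by edgeR 4.0.16 (TMM), DESeq2 1.42.0, other totals, 2 added reads, other read minimums and added copies. The calculation was tested on simulated Poisson counts. These hold no duplicates, multiply mapped reads or differences between preparations, so the simulation does not cover such errors.

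The members and lists were chosen with earlier results of these data known. Named nuclear genes were the 2 lowest and 2 highest of each list with at least 200 reads, and Tfam, Polrmt, Lrpprc, Slirp and Ppargc1a. The nuclear copies beyond the fixed list, the differences between pairs of members and the sequences shown were chosen after the values were seen.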

Additional observations from a re-analysis of the deposited data

How the results depend on the processing

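No paired analysis was possible because each cell type had 1 library and the comparison no test. Scaling by TMM, DESeq2 size factors, a total that left out the 10 genes of highest count, or a total that left out the members, shifted all log2 ratios alike by 0.01, 0.01, 0.03 and 0.01. The log2 ratio of the summed members was then 0.160, 0.159, 0.181 and 0.163, and that of the summed mRNAs 0.054, 0.054, 0.076 and 0.058. In the scaling without those 10 genes, 2 members instead of 4 had an interval below 0, as those of mt-Co1 and mt-Th came to include 0. With those 10 genes, mt-Rnr1, mt-Rnr2 and mt-Co1 among them, left out of both numbers, the members' share was 1.46% in MHs and 1.78% in SHs. With rRNAs and tRNAs left out, the mRNAs' share was 1.38% and 1.43%. With the reads of the nuclear copies of the fixed list added, which lacked Gm10222, the members' share was 8.10% and 8.96%. The log2 ratio of their sum was then 0.144. With every gene sharing a 31-base stretch added, chosen after the data were seen, these were 8.11%, 8.96% and 0.144. Counted as 1 transcript with its partner, mt-Atp6 had 253.6 RPKM in SHs, and mt-Nd4 had 103.5 in MHs and 134.5 in SHs. The order of the mRNAs with copies added was also chosen after the data were seen. No single member changed its direction where its interval lay on one side of 0. Of the 37 members, 8 moved beyond their interval without the 10 genes, 3 under each other scaling and 1 with added copies. Medians of the nuclear lists stayed, under all alternatives run for them, within the counting interval of the gene or genes at the middle of each list. These are not intervals of the median, and they are wider than the shifts by scaling, so this outcome says little.
Depth limits mt-Td, mt-Ts1, mt-Tw, mt-Tt and mt-Ty, which had under 100 reads in MHs.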
